A study of Mus musculus with 20 samples.

Results

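Fc gamma receptors are the cell-surface proteins through which macrophages recognise IgG antibodies bound to a target. The mouse genes described here are Fcgr1, Fcgr3 and Fcgr4, which encode activating receptors, Fcgr2b, which encodes the inhibitory receptor, Fcer1g, which encodes their shared signalling chain, and Fcgrt, which encodes the neonatal Fc receptor. They were chosen by gene symbol from tables of transcript levels, and all 6 of them were found among the 51456 genes listed. All 6 also passed the minimum mean level of 1 FPKQ that left 10843 genes for testing, and none was near that limit. FPKQ is the authors' unit, and no header or label defines it. From its name it was treated as fragments per kilobase of transcript on a library scale set by a quantile. Levels of different genes are set side by side per length on that reading.

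The libraries came from bone-marrow-derived macrophages, cells grown from mouse marrow in the growth factor CSF-1. The 3 genotypes were compared on the C57BL/6 strain. The R47H libraries (n = 5) came from mice with a knock-in of the Trem2 substitution R47H, which in humans is a risk variant for Alzheimer's disease. The KO libraries (n = 5) came from mice labelled as a 5 bp knockout of Trem2, and the WT libraries (n = 10) from wild-type mice. All mice were 4 to 5 months old, all cultures received 50 ng/ml CSF-1, and all RNA was taken on day 6 with no antibody or other stimulus named in the labels. The study's design text speaks of littermate wild-type animals for both mutant lines and of 5 animals per genotype. The labels number the WT libraries from Rep1 to Rep10 and do not say which of them belong to which line, so values of WT Rep6 to Rep10 and WT Rep1 to Rep5 are also given apart where they differ. The labels name no Cre or cell-type promoter for either allele, and the cultures are macrophages made outside the body. In bulk RNA, fewer cells of a type and less RNA per cell cannot be told apart.

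An activating Fc gamma receptor binds the constant part of IgG and pairs with the gamma chain, whose cytoplasmic ITAM motif is phosphorylated by Src family kinases and then recruits the kinase Syk. Phagocytosis and cytokine release follow. The inhibitory receptor carries an ITIM motif in its own tail, which recruits the lipid phosphatase encoded by Inpp5d, and the balance of both kinds of receptor is commonly described as setting the threshold of a macrophage for immune complexes. The neonatal receptor is a relative of MHC class I molecules that pairs with beta-2-microglobulin and returns IgG from endosomes to the cell surface. Trem2 itself signals through Tyrobp, another adaptor with an ITAM.

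A cluster of 4 of the genes lies on chromosome 1. On GRCm38, Fcgr2b is at chr1:170958617-170976547 on the minus strand, Fcgr4 at chr1:171018920-171029761 on the plus strand, Fcgr3 at chr1:171051174-171064935 on the minus strand and Fcer1g at chr1:171229572-171234365 on the minus strand, a span of 275.7 kb. Fcgr1 lies at chr3:96282909-96293969 and Fcgrt at chr7:45092990-45103851, both on the minus strand.

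Fcgr2b and Fcgr3 are near copies of each other over the part that encodes the IgG-binding domains, and this bears on how reads were divided between them. Of all 75-base windows in annotated transcripts, the length of 1 sequencing read, 94 were the same in both genes, which is 1.63% of the 5768 windows of Fcgr2b and 5.42% of the 1733 windows of Fcgr3. Fcgr2b shared 156 windows in all, 2.71% of its own, with 23 other genes including Fcgr3. No such window of Fcgr1, Fcgr4, Fcer1g or Fcgrt was found in another gene. The longest identical run was 129 bases, all coding, and crosses from exon 3 into exon 4 in both genes (Fcgr2b within chr1:170966674-170968081, Fcgr3 within chr1:171054167-171057792, GRCm38, minus strand). It is printed in the direction of transcription, with no letters set off, because a read that falls wholly inside it does not show which receptor it came from.
Fcgr2b and Fcgr3: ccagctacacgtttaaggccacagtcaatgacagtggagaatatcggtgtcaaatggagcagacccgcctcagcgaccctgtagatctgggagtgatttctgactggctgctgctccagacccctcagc

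The 250 bases before a RefSeq transcription start of each of the 4 IgG-binding receptors are shown because the genes moved by different amounts. In them 3 letter patterns were searched on both strands. These were GAGGAA, a core read by the myeloid factor PU.1, TTCNNNGAA, the pattern of STAT factors that in human FCGR1A mediates the response to interferon gamma, and TGANTCA, the pattern of AP-1. They do not overlap one another in the windows shown. Capitals mark the matches, and a GAGGAA on the opposite strand appears as TTCCTC. The sequences are RefSeq's on GRCm38.p6, in the direction of transcription, from chr3:96293970-96294219 (Fcgr1), chr1:171059404-171059653 (Fcgr3, the first of 2 listed starts), chr1:171018676-171018925 (Fcgr4) and chr1:170976072-170976321 (Fcgr2b).
Fcgr1: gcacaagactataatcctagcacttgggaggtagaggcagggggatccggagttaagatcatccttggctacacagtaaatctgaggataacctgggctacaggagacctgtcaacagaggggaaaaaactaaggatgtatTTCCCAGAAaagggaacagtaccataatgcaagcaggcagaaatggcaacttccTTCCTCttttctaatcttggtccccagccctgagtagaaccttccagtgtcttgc
Fcgr3: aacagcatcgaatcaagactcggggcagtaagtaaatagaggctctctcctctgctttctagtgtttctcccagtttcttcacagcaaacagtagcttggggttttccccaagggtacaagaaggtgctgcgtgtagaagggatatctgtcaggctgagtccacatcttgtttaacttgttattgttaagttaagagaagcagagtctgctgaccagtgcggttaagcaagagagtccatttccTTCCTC
Fcgr4: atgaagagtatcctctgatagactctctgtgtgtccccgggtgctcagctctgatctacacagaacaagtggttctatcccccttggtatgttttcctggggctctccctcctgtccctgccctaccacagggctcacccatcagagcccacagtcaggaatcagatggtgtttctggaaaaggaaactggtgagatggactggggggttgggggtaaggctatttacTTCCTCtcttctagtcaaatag
Fcgr2b: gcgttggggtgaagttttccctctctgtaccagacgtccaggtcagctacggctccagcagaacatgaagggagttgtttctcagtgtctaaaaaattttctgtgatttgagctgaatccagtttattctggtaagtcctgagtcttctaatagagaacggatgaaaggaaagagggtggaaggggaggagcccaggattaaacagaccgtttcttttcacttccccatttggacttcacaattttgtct

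GAGGAA was present once in each of the 3 activating receptor genes. Counted back from the start, its first base was at position -55 in Fcgr1, -6 in Fcgr3 and -22 in Fcgr4. From the second listed start of Fcgr3 the same match was at -15. GAGGAA was not in these windows of Fcgr2b, Fcer1g or Fcgrt. The windows of Fcgr2b and Fcgr3 lie wholly inside the gene spans given above, so annotated starts farther upstream were not searched. Over 32851 mouse promoters of the same length, 23.25% held GAGGAA. TTCNNNGAA was found in Fcgr1 at position -109 and in no other of the 6 genes, and 7.02% of all promoters held it. TGANTCA was in none of the 6, against 6.749% of all promoters. Only these exact patterns were searched, so a window without a match may still hold another form of a factor's site. A match is a description of the letters and was not tied to the levels reported here.

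In the libraries as a whole, Trem2 checked the labels. It averaged 652 ± 137 FPKQ in R47H, 24.1 ± 0.435 FPKQ in KO and 806 ± 60.6 FPKQ in WT (SD, n = 5, 5 and 10), so the KO libraries kept 2.99% of the WT level. R47H averaged 80.9% of the WT level, with 3 of 5 libraries below every WT library (exact two-sided permutation p = 0.017 over 3003 splits). Depth was read from the smallest step between low values: 1 FPKQ in a transcript of 2 kb stood for 53.2 ± 3.71 fragments in R47H, 52.3 ± 3.87 in KO and 61.7 ± 5.17 in WT. The receptor genes were therefore deeply counted, with the lowest estimate at 1700 fragments (Fcgr4) and the highest at 38780 (Fcer1g). Counting error was estimated at up to 2.43% of a value, with the longest annotated transcript of each gene. A shorter transcript would give fewer fragments and a larger error. All 8 macrophage markers passed the minimum level, led by Lyz2, Cd68 and Csf1r, and they did not move together: 4 were called higher and 2 lower in R47H, and 5 higher and 2 lower in KO. Cd14 averaged 581 FPKQ in R47H, 301 FPKQ in KO and 731 FPKQ in WT, and Mertk averaged 25.6 FPKQ in R47H, 52.3 FPKQ in KO and 14.1 FPKQ in WT. The summed level of 11 neutrophil markers, some of which macrophages also express, ran from 87.6 to 153 FPKQ in R47H, from 99.3 to 131 FPKQ in KO and from 72.0 to 109 FPKQ in WT. Of the 11, 5 passed the minimum level, and 2 were called higher in R47H and 1 in KO. Csf3r, with the highest mean of the list over all libraries, averaged 43.1 FPKQ in R47H, 55.6 FPKQ in KO and 29.8 FPKQ in WT. S100a9 averaged 47.5 FPKQ in R47H, 33.9 FPKQ in KO and 33.6 FPKQ in WT, and S100a8 averaged 24.7 FPKQ in R47H, 17.95 FPKQ in KO and 17.9 FPKQ in WT, while Ly6g did not pass 0.117 FPKQ in any library. The B cell list summed to 63.9 to 85.9 FPKQ in R47H, 58.4 to 80.0 FPKQ in KO and 70.5 to 89.4 FPKQ in WT, nearly all of it Ighm. Of its 6 markers 2 passed the minimum level, Ighm and Cd79b, and neither was called. The endothelial and stromal list, led by Kdr, summed to 4.42 to 5.34 FPKQ in R47H, 5.18 to 7.496 FPKQ in KO and 2.599 to 4.21 FPKQ in WT. Kdr was the 1 marker of that list that passed the minimum level, and it was called higher in both mutants. NK, T, mast, dendritic and erythroid lists did not pass 5.93 FPKQ in any library, and Gzma was listed at 0 throughout. Kit, the 1 mast cell marker tested, was called lower in KO and not in R47H, and Siglech, the 1 dendritic marker tested, was not called. The part of these markers in the receptor results was not tested.

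Against WT, both mutants held more Fcgr2b, Fcgr3, Fcgr4 and Fcgrt RNA, and neither differed detectably in Fcer1g. The inhibitory receptor moved furthest: Fcgr2b was 1.81-fold higher in R47H and 5.08-fold higher in KO. The activating receptors did not move together, since Fcgr3 and Fcgr4 were higher in both mutants while Fcgr1 fell to 74.3% of the WT mean in KO and stood at 103% of it in R47H. The ratio of inhibitory to activating transcript was higher in both mutants, by 1.46-fold in R47H and 3.63-fold in KO.

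Each gene was tested within a limma model across all 10843 genes, with a Benjamini-Hochberg adjusted p under 0.05 called a change. Against WT, 4 of the 6 genes were called higher in R47H and none lower, where 21.2% of all tested genes were called, 13.4% higher and 7.83% lower. In KO against WT, 5 of the 6 were called, 4 higher and 1 lower, where 52.0% of all tested genes were called, 28.2% higher and 23.7% lower. Between the mutants, 4 of the 6 were called, Fcgr1 higher in R47H and Fcgr2b, Fcgr3 and Fcgrt lower, where 40.7% of tested genes were called, 22.8% higher and 18.0% lower. With so many genes called in KO, a count of 5 in 6 is read beside that background and not alone. The median log2 fold change of the 6 genes was 0.47 in R47H against WT, 0.73 in KO against WT and -0.26 in R47H against KO, beside medians of 0.039, 0.014 and 0.027 over all tested genes. Both mutants were compared with the same WT libraries. The split of all calls moved with the scaling: 63.1% of those in R47H and 54.3% of those in KO were higher, against 20.7% and 36.1% with libraries scaled to equal sums, and the calls of Fcgr2b, Fcgr3, Fcgr4 and Fcgrt in both mutants kept their direction there.

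**Figure D1:**
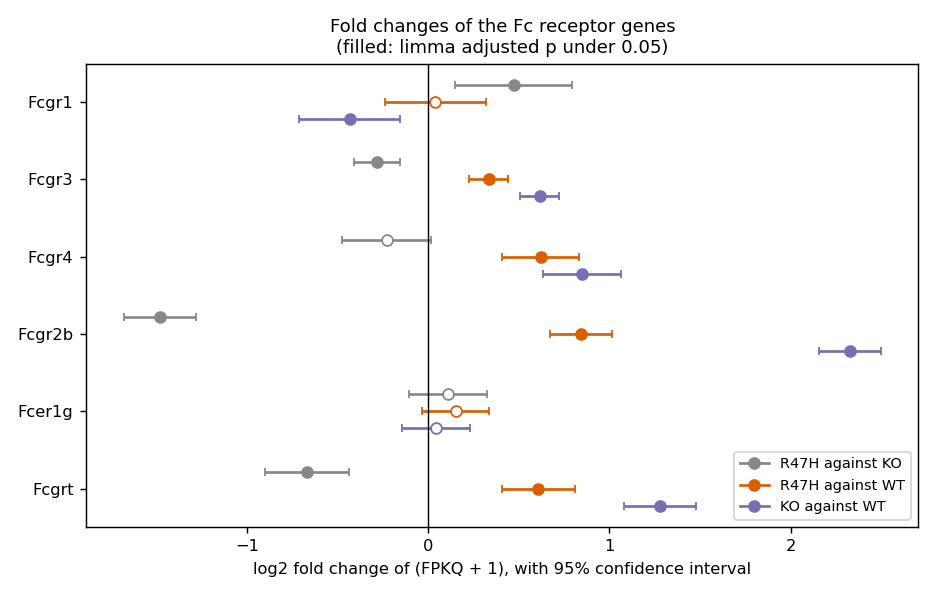
Log2 fold changes of the 6 genes on the log2(FPKQ + 1) scale (horizontal axis) with 95% confidence intervals from limma, 1 row per gene; grey is R47H against KO, orange R47H against WT, purple KO against WT, and filled points have an adjusted p under 0.05. Fcgr2b lies furthest from 0, at 0.85 in R47H and 2.33 in KO against WT, Fcgr1 is the 1 gene below 0 in KO against WT, and all 3 intervals of Fcer1g cross 0.

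Fcgr1 encodes the high-affinity receptor, which can hold IgG that is not in a complex. Its level was 125, 156, 106, 165 and 178 FPKQ in R47H Rep1 to Rep5 and 118, 110.0, 80.8, 129.5 and 86.0 FPKQ in KO Rep1 to Rep5, while the WT libraries ran from 107 to 178 FPKQ with a median of 144. The groups overlapped, and 2 of 5 KO libraries, Rep3 and Rep5, lay below every WT library. KO averaged 105 ± 20.9 FPKQ and WT 141 ± 22.5 FPKQ (SD, n = 5 and 10), a log2 fold change of -0.43 (SE 0.13, adjusted p = 0.0102; exact two-sided permutation p = 0.0120 over 3003 splits). R47H averaged 146 ± 29.9 FPKQ (SD, n = 5), and its log2 fold change against WT was 0.04 with a 95% interval of -0.24 to 0.32 (adjusted p = 0.872). The fall in KO was not called when only WT Rep6 to Rep10 stood for wild type (log2 fold change -0.25, adjusted p = 0.177). Those libraries averaged 124 ± 14.0 FPKQ, and WT Rep1 to Rep5 averaged 159 ± 12.8 FPKQ. R47H stood 1.39-fold above KO (log2 fold change 0.47, SE 0.15, adjusted p = 0.0195), where an exact permutation test over 252 splits gave p = 0.0556. That difference was not called without KO Rep3, KO Rep5 or R47H Rep5 (adjusted p = 0.0624, 0.0565 and 0.0540 in that order).

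Fcgr3 encodes a low-affinity activating receptor and was the most abundant of the 4 IgG-binding chains. It had 711, 700, 666, 661 and 754 FPKQ in R47H and 839, 861, 905, 877 and 767 FPKQ in KO, while WT ran from 505 to 613 FPKQ with a median of 545. The 3 genotypes did not overlap: every KO library stood above every R47H library, and every R47H library above every WT library. Means were 698 ± 37.7 FPKQ in R47H, 850.0 ± 52.2 FPKQ in KO and 554 ± 34.7 FPKQ in WT (SD, n = 5, 5 and 10). The log2 fold changes against WT were 0.33 in R47H (SE 0.05, adjusted p = 6.95e-05) and 0.62 in KO (SE 0.05, adjusted p = 1.82e-09). R47H lay below KO by a log2 fold change of -0.28 (SE 0.06, adjusted p = 8.86e-04).

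Fcgr4 encodes an activating receptor of intermediate affinity that binds IgG2a and IgG2b. It had 92.5, 110.0, 79.5, 83.5 and 109.8 FPKQ in R47H and 117, 114, 95.2, 119.9 and 108 FPKQ in KO, while WT ran from 46.5 to 75.8 FPKQ with a median of 60.2. Both mutants stood wholly above WT, and they overlapped each other. Means were 95.1 ± 14.3 FPKQ in R47H, 111 ± 9.80 FPKQ in KO and 61.6 ± 9.48 FPKQ in WT, giving log2 fold changes of 0.62 in R47H (SE 0.10, adjusted p = 1.48e-04) and 0.85 in KO (SE 0.10, adjusted p = 4.76e-07). R47H against KO gave -0.23 with a 95% interval of -0.48 to 0.02 (adjusted p = 0.128). Fcgr4 was also the 1 gene of the 6 called between the sets of WT libraries, lower in WT Rep6 to Rep10 at 53.9 ± 4.91 FPKQ than in WT Rep1 to Rep5 at 69.2 ± 5.53 FPKQ (log2 difference -0.36, adjusted p = 0.0235), where 6.51% of tested genes were called and 2.88% were called lower. If R47H is matched to WT Rep6 to Rep10, and KO to the other WT set, which the labels do not state, the difference between the mutant effects turns to 0.13 (adjusted p = 0.534).

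Fcgr2b, the inhibitory receptor, was the least abundant of the 6 genes in WT and the third most abundant in KO. It had 72.5, 66.3, 57.3, 69.4 and 78.6 FPKQ in R47H and 186, 199, 197, 190.1 and 192 FPKQ in KO, while WT ran from 30.7 to 44.5 FPKQ with a median of 38.1. The genotypes were fully apart, and the KO libraries lay close to one another with a coefficient of variation of 2.69%. Means were 68.8 ± 7.89 FPKQ in R47H, 193 ± 5.19 FPKQ in KO and 37.9 ± 4.90 FPKQ in WT. The log2 fold changes were 0.85 in R47H against WT (SE 0.08, adjusted p = 2.07e-07), 2.33 in KO against WT (SE 0.08, adjusted p = 5.12e-15) and -1.48 in R47H against KO (SE 0.09, adjusted p = 6.26e-10). WT Rep6 to Rep10 averaged 34.5 ± 3.94 FPKQ and WT Rep1 to Rep5 41.4 ± 3.06 FPKQ, a log2 difference of -0.26 (adjusted p = 0.0513), which is small beside either mutant. B cells also express Fcgr2b. The B cell markers Ighm, at 71.5 FPKQ in R47H, 67.9 FPKQ in KO and 76.1 FPKQ in WT, and Cd79b, at 1.53 FPKQ in R47H, 1.68 FPKQ in KO and 1.65 FPKQ in WT, were detected and not called, and their part in the Fcgr2b result was not tested.

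**Figure D2:**
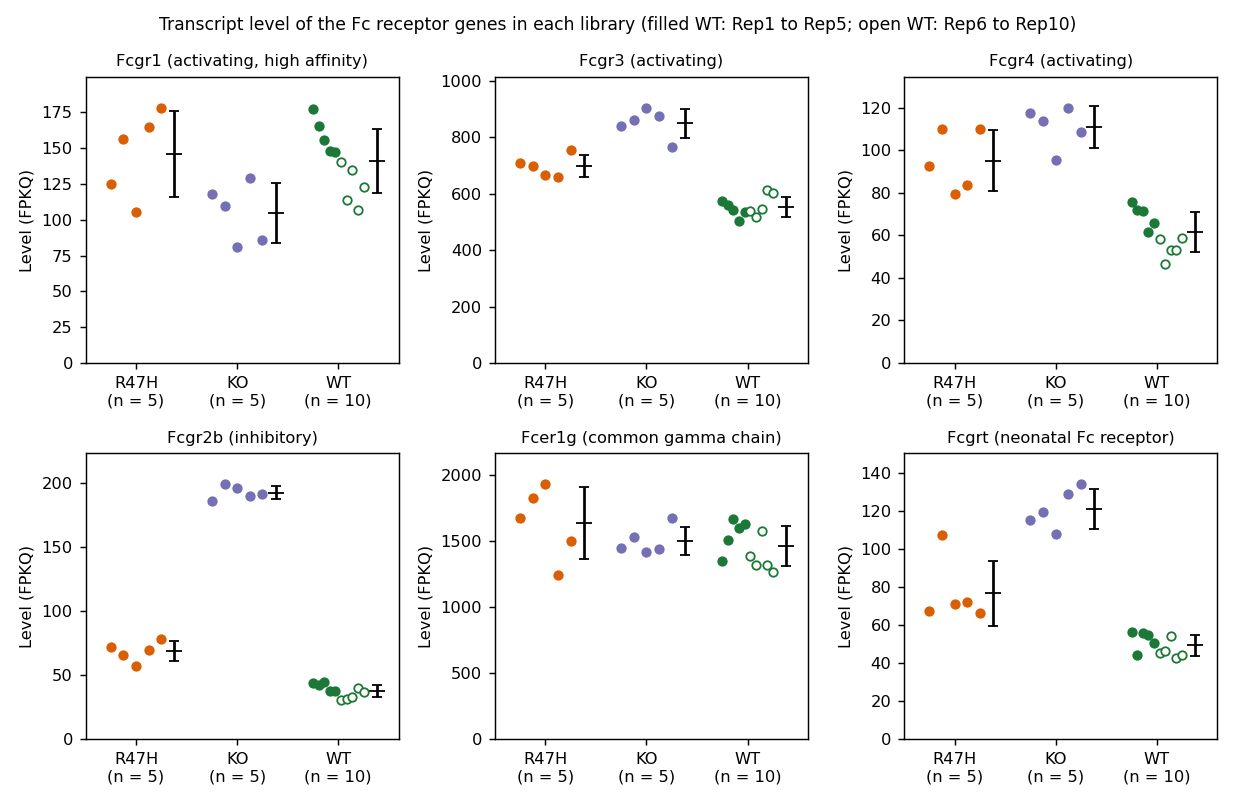
Level of each gene in FPKQ (vertical axes, each from 0) in every library, grouped as R47H, KO and WT; points are libraries, open WT points are Rep6 to Rep10, and the bars give the mean and SD. Fcgr2b and Fcgr3 separate the 3 genotypes without overlap, Fcgrt does so with R47H Rep2 at 107 FPKQ next to the lowest KO library at 108 FPKQ, and Fcer1g overlaps across all groups.

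Fcer1g encodes the common gamma chain, without which the activating receptors are not held at the surface of mouse macrophages. It was the most abundant of the 6, ranked 31 of the tested genes in WT. Its level was 1676, 1827, 1934, 1247 and 1506 FPKQ in R47H and 1450, 1535, 1422, 1441 and 1675 FPKQ in KO, while WT ran from 1266 to 1673 FPKQ with a median of 1448. The groups overlapped, and the R47H libraries held both the highest and the lowest value. Means were 1638 ± 272 FPKQ in R47H, 1505 ± 105 FPKQ in KO and 1464 ± 151 FPKQ in WT. The log2 fold change was 0.15 in R47H with a 95% interval of -0.03 to 0.34 (adjusted p = 0.247) and 0.04 in KO with an interval of -0.14 to 0.23 (adjusted p = 0.707). Without R47H Rep4, the lowest library, the R47H value became 0.25 and was called (adjusted p = 0.0355).

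Fcgrt encodes the heavy chain of the neonatal Fc receptor. It had 67.4, 107, 71.3, 72.0 and 66.3 FPKQ in R47H and 115, 119, 108, 129 and 134 FPKQ in KO, while WT ran from 42.6 to 56.5 FPKQ with a median of 48.3. No groups overlapped, although R47H Rep2 stood far above the other R47H libraries and just under the lowest KO library. Means were 76.8 ± 17.1 FPKQ in R47H, 121 ± 10.4 FPKQ in KO and 49.5 ± 5.52 FPKQ in WT, with log2 fold changes of 0.61 in R47H (SE 0.10, adjusted p = 8.95e-05) and 1.28 in KO (SE 0.10, adjusted p = 3.34e-10). R47H lay below KO by -0.67 (SE 0.11, adjusted p = 8.56e-05). Its partner B2m averaged 4424 ± 410 FPKQ in R47H, 4611 ± 240 FPKQ in KO and 4193 ± 295 FPKQ in WT and was not called in either mutant. The ratio of Fcgrt to B2m was 0.0174 ± 0.00383 in R47H, 0.0263 ± 0.00253 in KO and 0.0118 ± 0.00134 in WT, and R47H overlapped WT in this ratio while KO stood above both.

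Exact permutation tests of single genes gave the smallest p that 3003 splits allow, 6.66e-04, for Fcgr2b, Fcgr3, Fcgr4 and Fcgrt in each mutant against WT. For R47H against KO, Fcgr2b, Fcgr3 and Fcgrt gave 0.00794, the smallest that 252 splits allow, and Fcgr4 gave 0.0714. Groups that do not overlap always give the smallest p. The share of all tested genes without overlap is not given here, and limma called 21.2% of them in R47H against WT and 52.0% in KO against WT. Fcer1g gave 0.159 in R47H against WT, 0.562 in KO against WT and 0.397 between the mutants, and Fcgr1 gave 0.787 in R47H against WT.

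The balance of inhibitory to activating receptor transcript was summarised as Fcgr2b over the sum of Fcgr1, Fcgr3 and Fcgr4, all in FPKQ. It is built from genes already described, so it is given without a test. The ratio was 0.0781, 0.0686, 0.0672, 0.0764 and 0.0754 in R47H and 0.173, 0.184, 0.182, 0.169 and 0.1995 in KO, while WT ran from 0.0417 to 0.0578 with a median of 0.0512. All 3 genotypes were apart from one another. Means were 0.0731 ± 0.00487 in R47H, 0.181 ± 0.0118 in KO and 0.050004 ± 0.00477 in WT. Within the sets of WT libraries, R47H stood 1.57-fold above WT Rep6 to Rep10 and KO 3.39-fold above WT Rep1 to Rep5. WT Rep6 to Rep10 averaged 0.0464 and WT Rep1 to Rep5 0.0536, and these overlapped.

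The sum of the activating receptors itself was higher in both mutants, at 939.6 ± 70.6 FPKQ in R47H and 1066 ± 61.7 FPKQ in KO against 757 ± 43.1 FPKQ in WT. The ratio was therefore higher although its denominator was higher too. Taken receptor by receptor, Fcgr2b over Fcgr1 averaged 0.481 in R47H, 1.90 in KO and 0.272 in WT. Each KO library was above 1, the lowest at 1.47, so Fcgr2b transcript exceeded that of the high-affinity receptor in every KO library and in no R47H or WT library. Fcgr2b over Fcgr4 averaged 0.731 in R47H, 1.75 in KO and 0.621 in WT, and here R47H overlapped WT. Fcgr2b over Fcgr3 averaged 0.0984 in R47H, 0.227 in KO and 0.0685 in WT without overlap, but this ratio also separated WT Rep6 to Rep10 (0.0610) from WT Rep1 to Rep5 (0.0760). The gamma chain relative to the activating receptors, Fcer1g over their sum, averaged 1.76 ± 0.364 in R47H, 1.42 ± 0.187 in KO and 1.94 ± 0.238 in WT. All groups overlapped, but KO overlapped WT through KO Rep5 alone, at 1.74. KO Rep1 to Rep4 had 1.35, 1.41, 1.32 and 1.28, below the lowest WT library at 1.61.

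**Figure D3:**
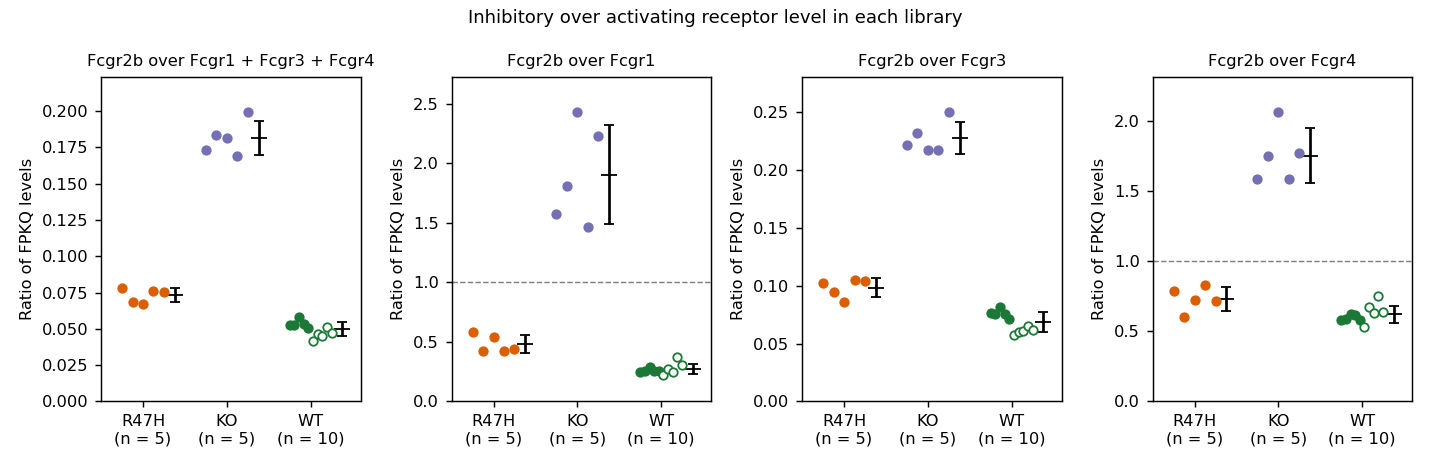
Ratio of Fcgr2b to the summed activating receptors and to each of them (vertical axes, ratios of FPKQ levels, each from 0) in every library of R47H, KO and WT; open WT points are Rep6 to Rep10, bars give mean and SD, and the dashed line marks a ratio of 1. KO averages 0.181 in the summed ratio and R47H 0.0731, above the highest WT library at 0.0578, and Fcgr2b exceeds Fcgr1 and Fcgr4 in the KO libraries alone.

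As shares of the 4 IgG-binding chains, Fcgr2b made up 6.81% ± 0.424 in R47H, 15.3% ± 0.842 in KO and 4.76% ± 0.433 in WT. Fcgr1 made up 14.4% ± 2.25 in R47H, 8.31% ± 1.43 in KO and 17.7% ± 2.36 in WT, with R47H overlapping WT. Fcgr3 made up 69.4% ± 2.68 in R47H, 67.5% ± 1.88 in KO and 69.8% ± 3.38 in WT, with overlap of all groups. Fcgr4 made up 9.39% ± 0.860 in R47H, 8.83% ± 0.797 in KO and 7.72% ± 0.890 in WT, with overlap. In KO the share of Fcgr2b was higher and that of Fcgr1 lower than in any WT library. The shares of Fcgr1, Fcgr3 and Fcgr4 also did not overlap between the sets of WT libraries, and Fcgr3 made up 72.7% in WT Rep6 to Rep10 and 66.9% in WT Rep1 to Rep5. The differences in the share of Fcgr3 between genotypes were smaller than that.

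By level per length, the order in R47H and in WT was Fcer1g, Fcgr3, Fcgr1, Fcgr4, Fcgrt and Fcgr2b. In KO it was Fcer1g, Fcgr3, Fcgr2b, Fcgrt, Fcgr4 and Fcgr1. Fcer1g exceeded Fcgr3, and Fcgr3 each of the other 4, in all 20 libraries. Several neighbours in the order did not differ beyond their spread. In R47H, Fcgr2b exceeded Fcgrt in 2 of 5 libraries, and in WT Fcgr4 exceeded Fcgrt in 9 of 10. In KO, Fcgrt exceeded Fcgr4 in 4 of 5 libraries, and Fcgr1 lay above Fcgr4 in 2 of 5 and above Fcgrt in 2 of 5.

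The genes with the most similar profiles were found by the root mean square difference of log2(FPKQ + 1), each gene centred on its own WT mean, over the 20 libraries and 10115 protein-coding genes. For Fcgr2b the nearest were Cmklr1 at 0.158, Cd86 at 0.234, A530064D06Rik at 0.254, Itgal at 0.269 and Mertk at 0.270. Cmklr1, a chemerin receptor, averaged 7.99 FPKQ in R47H, 27.999 FPKQ in KO and 4.29 FPKQ in WT. Cd86, a costimulatory ligand, averaged 10.7 FPKQ in R47H, 25.2 FPKQ in KO and 5.49 FPKQ in WT. For Fcgr3 the nearest was Syk at 0.0880, followed by Itm2b at 0.0904 and Smpdl3a at 0.0910. Syk, the kinase recruited by the ITAM, averaged 124 FPKQ in R47H, 149.9 FPKQ in KO and 95.03 FPKQ in WT. For Fcgr4 they were Gm21188, Ctsh and Csf3r at 0.139, 0.151 and 0.153, of which Csf3r also stands on the neutrophil marker list, with 43.1 FPKQ in R47H, 55.6 FPKQ in KO and 29.8 FPKQ in WT.

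Fcgr1 was nearest to Rtp4 at 0.134, Daxx at 0.159 and Oas1g at 0.164. Fcer1g was nearest to Rab11b at 0.0916, Slc25a39 at 0.0939 and Rnasek at 0.0962. Fcgrt was nearest to Rapgef3 at 0.145, Selenop at 0.156 and Clec4a3 at 0.158. Among the 6 genes themselves, the closest pair was Fcgr4 and Fcgr3 at 0.265, followed by Fcgrt and Fcgr4 at 0.288. Fcgr2b and Fcgr1 were the most distant pair at 1.45.

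Genes that act with the receptors were read from lists chosen for their roles. Of 25 genes of ITAM signalling, 10 were higher and 1 lower in R47H, and 9 were higher and 5 lower in KO, where 21.2% of all tested genes were called in R47H and 52.0% in KO. The list median was 0.096 in R47H and 0.054 in KO (log2 fold change), beside 0.039 and 0.014 over all tested genes. In R47H the count of 11 called genes was 5 under quantile normalization, 5 with libraries scaled to equal sums and 7 without WT Rep5. Syk rose by 0.37 in R47H (adjusted p = 1.02e-06) and by 0.65 in KO (adjusted p = 1.97e-11). Lyn, a Src family kinase that phosphorylates the receptor motifs, rose by 0.24 in R47H and 0.55 in KO (adjusted p = 0.00159 and 6.77e-09), and the adaptor Lcp2 by 0.29 and 0.85 (adjusted p = 0.00264 and 4.52e-10). In R47H Lyn was not called under those 2 scalings (adjusted p = 0.0587 and 0.234), and Lcp2 not with equal sums (adjusted p = 0.140). The adaptor Sh3bp2 fell by 0.36 in KO (adjusted p = 9.93e-08), with 76.4 ± 1.61 FPKQ against 98.6 ± 4.89 FPKQ in WT, and averaged 103 ± 4.26 FPKQ in R47H, where it was not called.

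Of 12 genes of inhibitory signalling below Fcgr2b, 4 were higher and 1 lower in R47H, and 3 were higher and 8 lower in KO. Of all tested genes 21.2% were called in R47H, 7.83% lower, and 52.0% in KO, 23.7% lower. The list median was 0.075 in R47H and -0.23 in KO. Between the mutants, 7 were higher and 3 lower in R47H than in KO, where 40.7% of all tested genes were called. Inpp5d, the phosphatase that the ITIM recruits, averaged 73.0 ± 3.06 FPKQ in R47H, 91.2 ± 3.78 FPKQ in KO and 65.2 ± 5.20 FPKQ in WT. It rose by 0.48 in KO (adjusted p = 8.54e-08), and its call in R47H at 0.16 (adjusted p = 0.0288) was lost under each of 3 other scalings (adjusted p = 0.344, 0.679 and 0.126) and without R47H Rep1, Rep2 or Rep5 (adjusted p = 0.0505, 0.0754 and 0.0697). Its relative Inppl1 fell by 1.07 in KO (adjusted p = 1.82e-12), with 88.7 ± 6.39 FPKQ in R47H, 47.8 ± 2.92 FPKQ in KO and 102 ± 8.26 FPKQ in WT. The adaptor Dok2 fell by 1.08 in KO (adjusted p = 1.69e-08), with 40.6 ± 3.55 FPKQ in R47H, 21.7 ± 1.83 FPKQ in KO and 47.8 ± 8.71 FPKQ in WT. Pag1, which anchors the kinase Csk, rose by 1.00 in KO (adjusted p = 6.12e-12), with 3.45 ± 0.277 FPKQ in R47H, 6.88 ± 0.625 FPKQ in KO and 2.94 ± 0.247 FPKQ in WT. In R47H, Inppl1 (-0.20, adjusted p = 0.0191) and Pag1 (0.18, adjusted p = 0.0366) were called, but with WT Rep1 to Rep5 as the only wild type neither was (adjusted p = 0.224 and 0.226), and 2 of the 12 genes were called instead of 5. Inppl1 also lost its call with weighted libraries (adjusted p = 0.0989) and without R47H Rep2 (adjusted p = 0.0780). Pag1 also lost its call with equal sums (adjusted p = 0.442) and median ratio size factors (adjusted p = 0.112). The same held for Pag1 without R47H Rep1, Rep2, Rep4 or Rep5 (adjusted p = 0.0704, 0.0575, 0.0826 and 0.0891) and without some single WT libraries.

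Other Fc receptors and Fc-binding proteins were mostly silent. Of 13 listed genes, 4 passed the minimum level: B2m, Trim21, Fcrl1 and Fcrls. Fcrls, an Fc receptor-like gene of mouse myeloid cells, had 151 ± 23.6 FPKQ in R47H, 177 ± 19.8 FPKQ in KO and 116 ± 14.996 FPKQ in WT. It was the 1 gene of these called, beside the shares of 21.2% in R47H and 52.0% in KO over all tested genes, rising by 0.37 in R47H (adjusted p = 0.00913) and 0.61 in KO (adjusted p = 2.29e-05), and in R47H it was not called under quantile normalization (adjusted p = 0.106), with equal sums (adjusted p = 0.104) or with WT Rep1 to Rep5 as the only wild type (adjusted p = 0.0751). Trim21, a cytosolic antibody receptor, had 19.2 ± 3.19 FPKQ in R47H, 16.6 ± 2.13 FPKQ in KO and 19.3 ± 2.21 FPKQ in WT. The IgE receptor alpha chain Fcer1a did not pass 0.242 FPKQ in any library.

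Of 13 other receptors and adaptors that signal through gamma chain or Tyrobp, 7 were tested, and 3 were higher in R47H and 4 in KO with none lower, beside 13.4% of all tested genes called higher in R47H and 28.2% in KO. The list median was 0.28 in R47H and 0.35 in KO. Clec4n, which encodes Dectin-2 and pairs with the gamma chain, had 36.1 ± 6.49 FPKQ in R47H, 123 ± 9.52 FPKQ in KO and 10.7 ± 1.97 FPKQ in WT. It rose by 1.66 in R47H (adjusted p = 6.64e-09) and 3.42 in KO (adjusted p = 1.42e-15), more than any Fc receptor gene in either mutant. Clec4d, a related lectin receptor, rose by 0.61 in R47H and 0.68 in KO (adjusted p = 2.44e-06 and 6.66e-08). Clec4e rose by 0.35 in KO (adjusted p = 0.0181), a call lost with equal sums (adjusted p = 0.0807), against WT Rep6 to Rep10 alone (adjusted p = 0.0655) and without KO Rep2 (adjusted p = 0.0506). Pira2 rose by 0.73 in KO (adjusted p = 5.61e-06).

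Of 24 genes of the actin and membrane machinery of IgG phagocytosis, 23 were tested, and 1 was higher and 2 lower in R47H, while 4 were higher and 11 lower in KO, beside 21.2% and 52.0% of all tested genes called in R47H and in KO. The list median was 0.001 in R47H and -0.06 in KO, and the 15 genes called in KO became 8 under quantile normalization. The 3 called in R47H became 8 with equal sums, 5 under quantile normalization and 1 with WT Rep6 to Rep10 as the only wild type. Myo1e, a myosin of the phagocytic cup, had 82.2 ± 5.31 FPKQ in R47H, 28.01 ± 4.08 FPKQ in KO and 102 ± 15.1 FPKQ in WT. It fell by 1.83 in KO (adjusted p = 7.81e-13). In R47H it fell by 0.30 (adjusted p = 0.0246), which was not called without R47H Rep2 or Rep5 (adjusted p = 0.0802 and 0.0505) or with WT Rep1 to Rep5 as the only wild type (adjusted p = 0.227). Myo10, a myosin needed for pseudopod extension, fell by 0.77 in KO (adjusted p = 8.97e-09), the actin regulator Coro1a by 0.60 (adjusted p = 1.55e-08) and the small GTPase Arf6 by 0.49 (adjusted p = 5.59e-08).

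Of 12 transcription factors that respond to signals in macrophages, 3 were higher and 1 lower in R47H, and 5 were higher and 3 lower in KO, beside the same shares of all tested genes (21.2% in R47H and 52.0% in KO). The list median was 0.04 in R47H and 0.14 in KO, and the 4 called in R47H became 2 with equal sums. Klf4 had 3.46 ± 0.736 FPKQ in R47H, 3.25 ± 0.695 FPKQ in KO and 6.84 ± 1.22 FPKQ in WT. It fell by 0.81 in R47H (adjusted p = 2.94e-05) and 0.88 in KO (adjusted p = 1.70e-06). Stat3 rose by 0.27 in KO (adjusted p = 1.30e-04), and Pparg fell by 0.61 in KO (adjusted p = 2.16e-06).

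**Figure D4:**
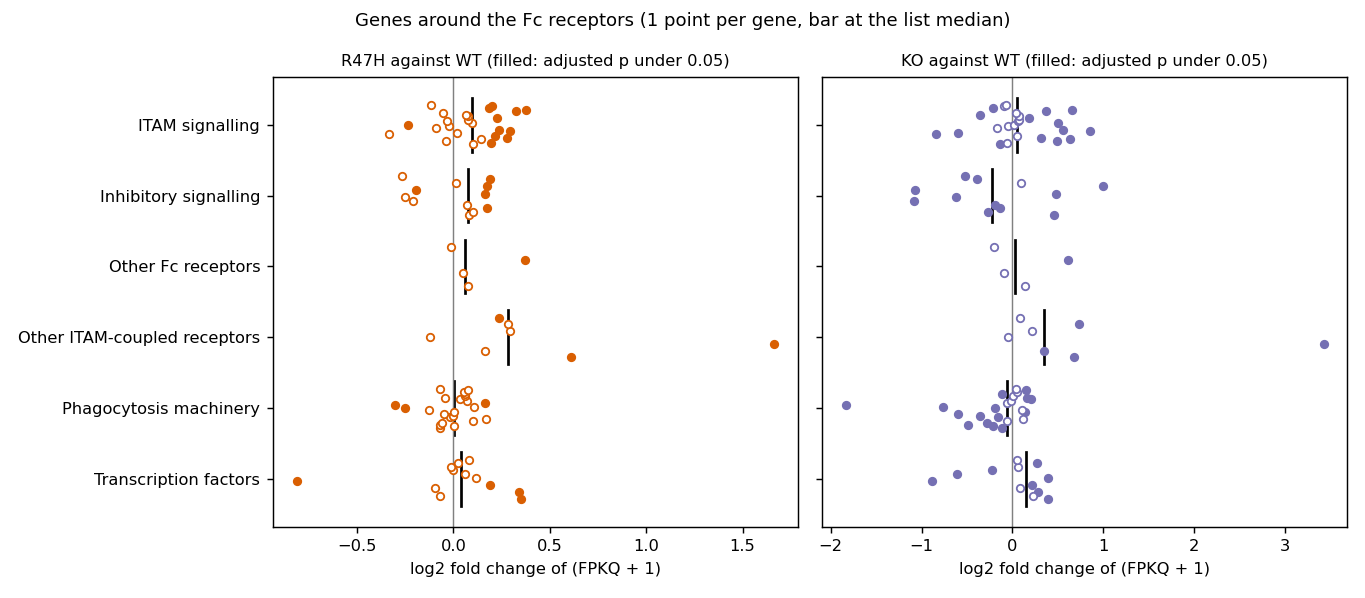
Log2 fold change of every tested gene of 6 lists (horizontal axes, log2 scale of FPKQ + 1, with different ranges in the panels), R47H against WT on the left and KO against WT on the right; each point is a gene, filled where the adjusted p is under 0.05, and the bars mark list medians. Inhibitory signalling has a median of -0.23 in KO and 0.075 in R47H, and Clec4n is the point furthest right, at 3.42 in KO and 1.66 in R47H.

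The genes around the chromosome 1 cluster were read within 500 kb of its ends. Of 62 neighbours listed, 24 were tested, and 6 were higher and 1 lower in R47H, while 6 were higher and 4 lower in KO. Of all tested genes 21.2% were called in R47H and 52.0% in KO, so nothing particular to the interval is read from these counts. The median of the neighbours was 0.12 in R47H and 0.025 in KO, and the 7 called in R47H became 4 with equal sums or median ratio size factors. Pcp4l1 lies between Fcgr3 and Fcer1g at chr1:171173262-171196268 and fell by 2.80 in KO (adjusted p = 4.94e-16) and 0.64 in R47H (adjusted p = 7.69e-06), with 92.0 ± 7.33 FPKQ in R47H, 19.97 ± 2.79 FPKQ in KO and 145 ± 15.5 FPKQ in WT. Tomm40l, next to Fcer1g, fell by 0.61 in KO (adjusted p = 4.30e-08). Farther along, the lymphocyte and myeloid surface genes Ly9 and Cd48 rose in both mutants by similar amounts, Ly9 by 0.41 in R47H and 0.41 in KO (adjusted p = 2.41e-06 and 3.32e-07) and Cd48 by 0.34 in R47H and 0.33 in KO (adjusted p = 6.40e-05 and 1.98e-05).

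**Figure D5:**
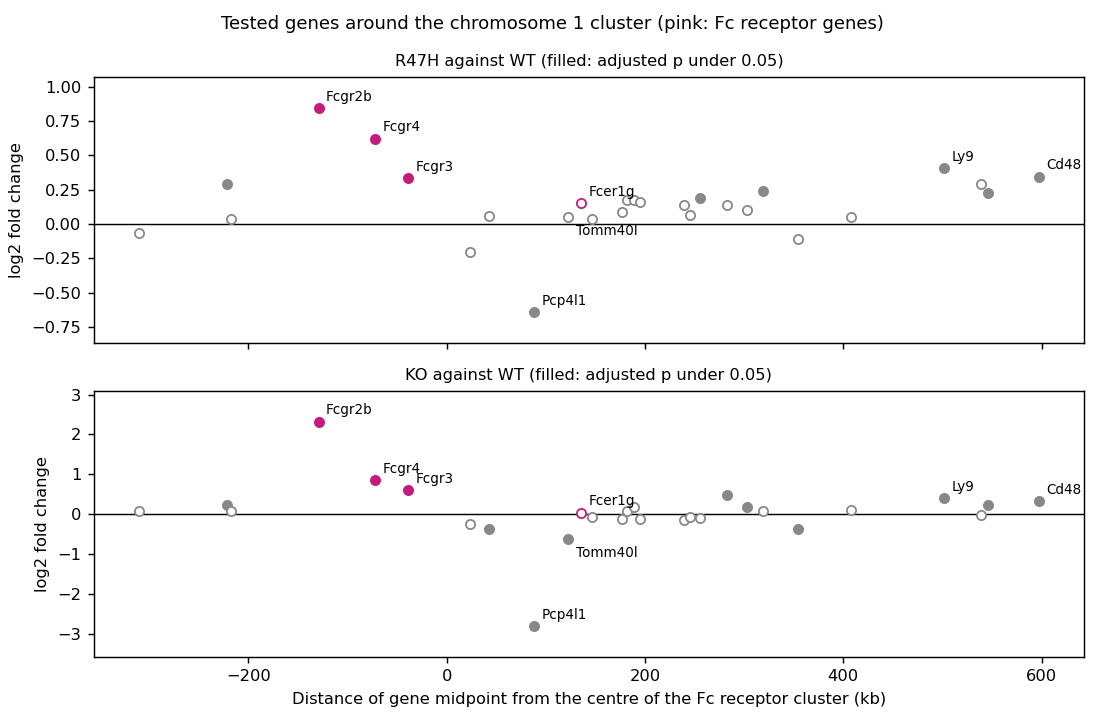
Log2 fold change (vertical axes) of the tested genes by the distance of the gene's midpoint from the centre of the cluster from Fcgr2b to Fcer1g (horizontal axis, kb), R47H against WT above and KO against WT below; pink points are Fc receptor genes, grey points other genes, filled where the adjusted p is under 0.05. Fcgr2b, Fcgr4 and Fcgr3 lie above 0 in both panels, and Pcp4l1 lies lowest at -0.64 in R47H and -2.80 in KO.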

How the data were processed

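RNA of 20 libraries was compared, 5 of R47H, 5 of KO and 10 of WT macrophages. The authors deposited 1 table per library with FPKQ values, treated here as FPKM whose library scale is set by a quantile. No header or label defines FPKQ. RSEM and GRCm38 are named in the submitters' processing notes, without versions. RSEM divides fragments between similar genes, which touches Fcgr2b and Fcgr3.

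Values were analysed as log2(FPKQ + 1), which understates changes of low genes. The genes averaging 1 FPKQ or more were fitted with limma 3.58.1 in R 4.3.3 (lmFit, eBayes with a trend, 3 groups, no covariates) with Benjamini-Hochberg adjustment, so every adjusted p is from limma over 10843 genes. WT Rep6 to Rep10 against WT Rep1 to Rep5 came from the same fit with 4 groups. Exact permutation tests compared mean log2 values over all splits, two-sided. The smallest steps between low values gave the worth of 1 fragment. Between 84.4% and 87.8% of the values used were whole multiples within 0.1 fragment, so no count test was run. Fragment numbers use the longest annotated transcript, and their precision covers counting error only. Windows and positions came from GENCODE M21.

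The members and lists were chosen with earlier results of these data known. Besides the 6 genes and Trem2, the text names up to 4 genes per list, by the smallest adjusted p in either mutant, markers with the highest levels, and the 3 nearest profiles of each member (5 for Fcgr2b). Fcer1a, Ly6g, Gzma and, as a marker, Mertk were named after their values were seen. Alternatives changed the pseudocount, filter, scaling, moderation, weights, samples in the fit and WT set, added a replicate block, and left out each library. Protein sequences were not used here. Some genes that this rule names are not reported here.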

Additional observations from a re-analysis of the deposited data

Results flagged for a closer look

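In 60 groups of libraries or measures checked, 4 held a library set apart from the rest of its group by a gap that is large for the group's range, and chance gives about 1 such group in 20. Fcgrt had 107 FPKQ in R47H Rep2, against 66.3 to 72.0 FPKQ in the other R47H libraries. Without that library the log2 fold change of Fcgrt in R47H against WT was 0.48 and was still called. The other 3 come from KO Rep3 and are built from overlapping genes. The shares are divided by a sum that also holds Fcgr2b and Fcgr1, and KO Rep3 had the lowest Fcgr1 of the KO libraries, at 80.8 FPKQ. Fcgr4 over Fcgr3 was 0.105 in KO Rep3, against a KO median of 0.137. The share of Fcgr3 among the 4 IgG-binding chains was 70.9% in KO Rep3, against a KO median of 66.6%. The share of Fcgr4 was 7.45% in KO Rep3, against a KO median of 9.11%.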

How the results depend on the processing

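The calls of Fcgr2b, Fcgr3, Fcgr4 and Fcgrt in each mutant against WT kept their direction and side of the threshold under every alternative run. Fcgr2b stayed between 0.72 and 0.97 in R47H and between 2.20 and 2.45 in KO (log2 fold change). Fcgr1 in KO against WT lost its call against WT Rep6 to Rep10 alone (-0.25). Leaving out 1 library gave Fcgr1 -0.51 to -0.34 in KO against WT, 0.38 to 0.58 in R47H against KO (called or not as above) and -0.038 to 0.148 in R47H against WT. Leaving out 1 library gave Fcer1g 0.088 to 0.246 in R47H against WT, called only when R47H Rep4 was left out. Values that were never called changed sign in 3 comparisons. Fcgr1 in R47H against WT turned to -0.077 under quantile normalization, -0.082 with equal sums, -0.00442 with median ratio size factors and -0.14 against WT Rep1 to Rep5 alone. Fcer1g in KO against WT turned to -0.0386 under quantile normalization, -0.0394 with equal sums and -0.0433 against WT Rep1 to Rep5 alone. Fcgr4 in R47H against KO turned to 0.13 when each mutant was set against its assumed WT set. The same matching gave 1559 called genes in R47H against KO, where the comparison as reported gave 4417. The cause of these changes was not tested.

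Of the genes called, 63.1% were higher in R47H, against 48.6% under quantile normalization, 20.7% with equal sums and 46.0% with median ratio size factors. In KO 54.3% were higher, against 36.1% with equal sums. Equal sums moved the median of all genes in R47H to -0.07, against 0.04 as reported, and Fcgr2b there stayed at 0.73 in R47H and 2.24 in KO. Without 1 library the called genes numbered 1704 to 2360 in R47H against WT, 5217 to 5758 in KO against WT and 3743 to 4709 in R47H against KO.

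The log2 ratio of Fcgr2b to the activating receptors was 1.86 higher in KO than in WT, against 2.01 with their geometric mean and 1.71 without Fcgr1. In R47H against KO it was -1.31, against -1.48 with the geometric mean. Same-numbered libraries of R47H, KO and WT Rep1 to Rep5 did not all deviate together (correlations of -0.152 to 0.309, 7 of 15 over 0.1), and a library correlated best with its own number in 8 of 30 comparisons with another group, so the numbers were not taken as pairs. WT Rep6 to Rep10 were not in this check, so a pairing of those libraries with a mutant was not tested. In a fit with a replicate block, WT Rep6 to Rep10 have no partner of their number and carry no weight in the estimates, which equal those against WT Rep1 to Rep5 alone, so 2 choices change together. With the block the genes called numbered 1802 in R47H against WT and 4398 in KO against WT, beside 1958 and 4508 with WT Rep1 to Rep5 alone and no block, and 4178 in R47H against KO. No call of the 6 genes changed, and Fcgr1 in R47H against WT (-0.14) and Fcer1g in KO against WT (-0.0433) had the sign they have against WT Rep1 to Rep5 alone.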
